A study of Mus musculus with 9 samples.

Results

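The genes described here encode 48 secreted proteins of the extracellular matrix other than the collagens, and they were picked by symbol from the 55487 genes in the tables. They comprise 14 adhesive, matricellular and adaptor glycoproteins, 4 CCN proteins, 6 small leucine-rich proteoglycans, 4 large proteoglycans and basement membrane linkers, 12 proteins of elastic fibres and microfibrils, 4 latent TGF-beta binding proteins and 4 lysyl oxidases. Of the 48, 47 reached 0.3 TPM (a transcript level already divided by transcript length and scaled to the sample's total) in at least 3 of the 9 samples and were tested among 16140 genes. The remaining gene, Fbn2, which encodes fibrillin-2 of developing microfibrils, did not pass this filter. It reached 0.299 TPM at most, in sample 1 of Con, and was listed at 0 in NC samples 1 and 3.

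RNA was sequenced from the gastrocnemius, a calf muscle, of male C57BL/6 mice that arrived at 8 weeks of age and were housed for a further 4 weeks. Dis was the hindlimb held straight in a thermoplastic bandage for 7 days, Con was the opposite, free hindlimb of immobilized mice, and NC was muscle of mice that received no bandage. The sample labels and the methods place Con in the leg that was not immobilized, whereas the series description gives the immobilized leg for both Con and Dis. The sample labels were followed. The tissue is likewise that of the labels, since 1 passage of the methods names the tibialis anterior, a shin muscle, as the source of the RNA. Each group holds 3 samples, numbered 1 to 3, no transgene is given for any of them, and the bandage was fitted under isoflurane anaesthesia. Con and Dis share mice, no key links the 2 legs of a mouse, and nothing in the labels says whether samples of a group were separate animals, so p-values measure the spread between these samples only. The comparison of Con with NC asks how far this internal control resembles muscle of untouched mice.

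Matrix proteins are made in muscle mainly by interstitial fibroblasts, tendon cells and vessel wall cells. Structural members such as fibrillin-1, elastin and decorin organise fibres that carry tension, while matricellular members such as tenascin-C, periostin, thrombospondins and the CCN proteins are made in larger amounts at sites of loading, growth or repair and bind integrins and growth factors. Latent TGF-beta binding proteins hold TGF-beta in the matrix, and lysyl oxidases link collagen and elastin chains to each other. In bulk RNA, fewer cells of a type and less RNA per cell cannot be told apart.

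Muscle fibre transcripts were abundant in all samples, and the marker sums of other cell types differed between them. Summed over 9 skeletal muscle fibre markers, the level lay between 149700 and 179800 TPM in the 9 samples. Dis sample 2 stood apart from all others, with a first principal component score of 68.1 against 12.7 and 19.6 in the other Dis samples and -21.5 to -8 in the controls. Its 10 macrophage markers summed to 479 TPM, against 57.5 to 144.8 TPM elsewhere. In Con sample 1 the 11 tenocyte markers summed to 341.6 TPM, against 30.2 to 137.5 TPM elsewhere, and only Tnn of this list was at 0 in all samples. The tendon transcription factor Scx did not follow this sum and stood at 13.8, 16.5 and 16.6 TPM in Con samples 1 to 3. Where values moved most without Dis sample 2 or Con sample 1, both versions are given.

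The promoters of 4 members are shown because these genes carry the differences described further on. Postn, Tnc and Ltbp2 were lower in Dis than in Con, and Ccn1 was higher. Each line gives the 250 bases before the transcription start as annotated by RefSeq on build GRCm38.p6, read along the gene's strand, with matches to the searched motifs in capitals. The window of Postn is chr3:54360857-54361106 on the plus strand, that of Tnc chr4:64047016-64047265 on the minus strand, that of Ltbp2 chr12:84876492-84876741 on the minus strand and that of Ccn1 chr3:145649986-145650235 on the minus strand.
Postn: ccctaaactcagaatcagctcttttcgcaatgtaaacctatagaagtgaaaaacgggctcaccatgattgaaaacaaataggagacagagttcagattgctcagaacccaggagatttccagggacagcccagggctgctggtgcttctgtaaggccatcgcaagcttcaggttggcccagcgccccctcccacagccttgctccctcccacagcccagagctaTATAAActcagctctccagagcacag
Tnc: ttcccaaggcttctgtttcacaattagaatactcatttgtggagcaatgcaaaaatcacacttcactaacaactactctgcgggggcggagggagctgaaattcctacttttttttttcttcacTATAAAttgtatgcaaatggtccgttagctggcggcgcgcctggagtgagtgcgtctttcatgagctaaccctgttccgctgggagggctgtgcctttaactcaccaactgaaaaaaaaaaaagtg
Ltbp2: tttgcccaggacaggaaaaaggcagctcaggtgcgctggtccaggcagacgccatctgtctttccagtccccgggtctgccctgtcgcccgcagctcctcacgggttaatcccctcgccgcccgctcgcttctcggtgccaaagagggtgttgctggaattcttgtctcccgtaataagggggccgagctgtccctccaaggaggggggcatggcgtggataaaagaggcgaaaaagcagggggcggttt
Ccn1: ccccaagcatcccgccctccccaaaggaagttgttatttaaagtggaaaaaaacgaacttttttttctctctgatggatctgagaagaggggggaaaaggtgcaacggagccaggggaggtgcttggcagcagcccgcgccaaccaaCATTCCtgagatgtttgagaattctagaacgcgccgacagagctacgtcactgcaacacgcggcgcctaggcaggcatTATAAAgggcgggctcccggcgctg

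RefSeq windows were matched for 29 of the 48 members, and 4 motifs were searched on both strands. TATAAA, the core of the TATA box, was found in 8 members (27.6%, against 14.3% of 27025 genes), which were Postn, Tnc, Thbs2, Spp1, Ecm1, Ccn1, Ogn and Aspn. In Postn and Ccn1 it began 26 and 25 bases before the start, and in Tnc 126 bases before it. GGAATG, bound by TEAD factors, was found in 4 members (13.8%, against 14.4%), and in Ccn1 it lay on the reverse strand 103 bases before the start. TGANTCA, bound by AP-1, was found in 3 members (10.3%, against 7.82%), and the CArG box bound by SRF in 0 (against 1.62%). The Ltbp2 window held none of the 4. These matches describe letters and are not binding sites.

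**Figure D1:**
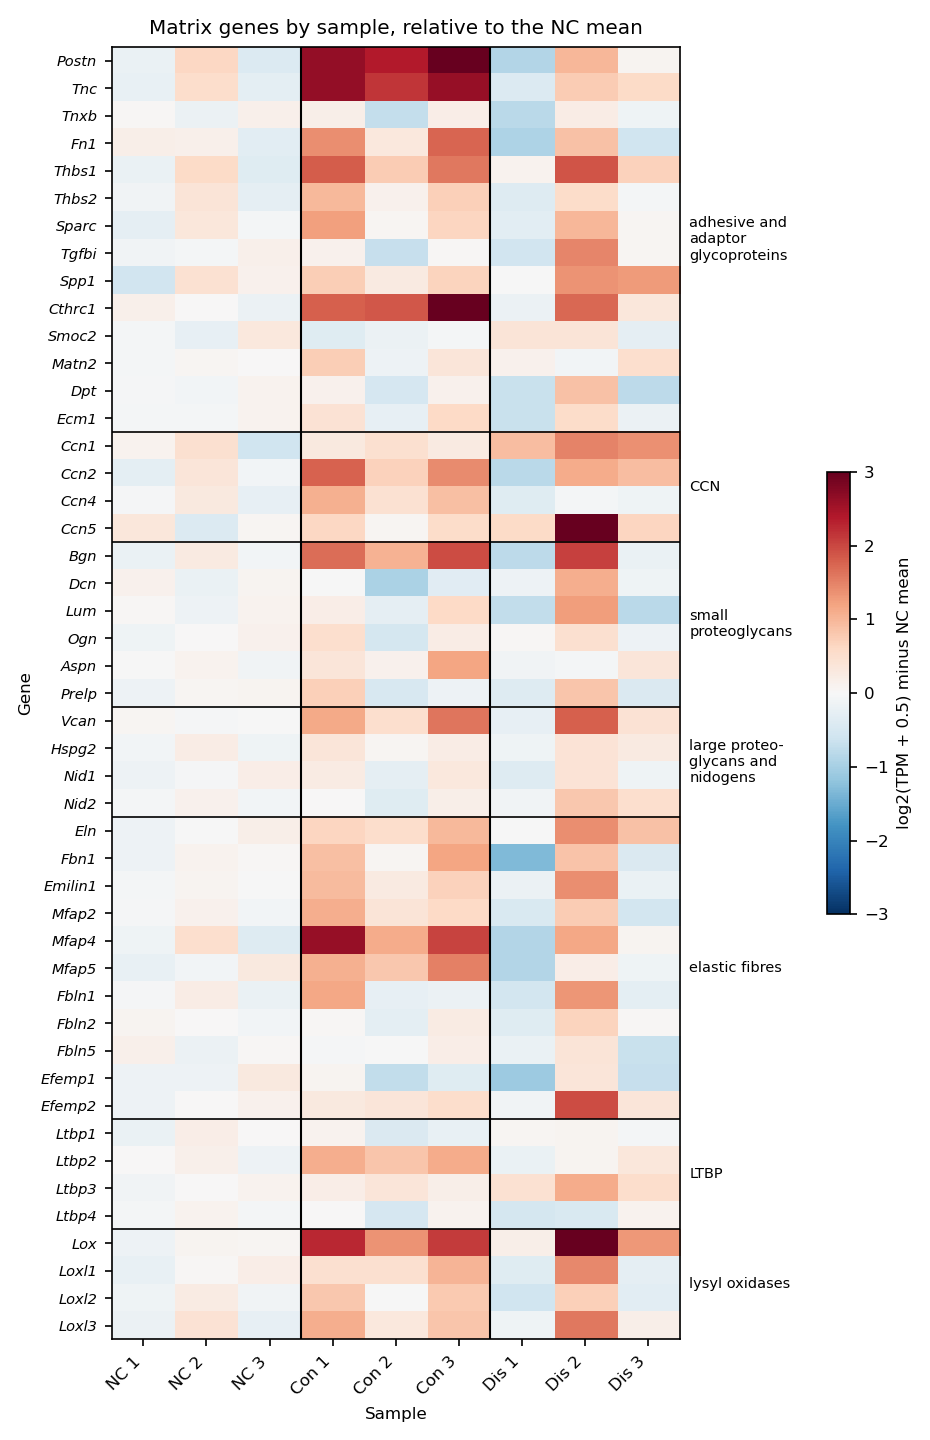
Level of the 47 tested matrix genes (rows, by role) in each of the 9 samples (columns), as log2(TPM + 0.5) minus the mean of the 3 NC samples, with colours limited to 3 units either side of 0. Red runs through Con samples 1 and 3 and Dis sample 2, while Dis sample 1 is blue in most rows.

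The free leg of immobilized mice was set against NC first. No single member passed the threshold, yet the members leaned one way: 37 of 47 had a higher mean log2 level in Con than in NC, against 51.5% of all tested genes. Their median log2 fold change was 0.53, against 0.01 over all genes. The widest differences were found for periostin, tenascin-C, Cthrc1, Mfap4 and lysyl oxidase. Of the 47, 12 differed by at least 1 on the log2 scale, all upward (0.675% of all genes did so upward): Postn, Tnc, Fn1, Thbs1, Cthrc1, Ccn2, Bgn, Vcan, Mfap4, Mfap5, Ltbp2 and Lox. Of these, Cthrc1 and Ltbp2 passed the filter only through Con.

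With limma, 0 members were called higher and 0 lower in Con than in NC at an adjusted p below 0.05 (0% and 0.0062% of all tested genes). At an unadjusted p below 0.05, 15 members were higher and 0 lower (3.34% and 2.91% of all genes). In 20 members all 3 Con samples lay above all 3 NC samples (9.54% of all genes), and in 0 below them (8.11%). The lean also held with median-ratio factors, quantile normalization or rescaling without mitochondrially encoded genes, each of which left 37 of 47 members higher. Cthrc1, Ccn4 and Ltbp2 passed the filter only through their Con levels, and without these 3 genes 34 of 44 members were higher by sign, 17 did not overlap and the median was 0.40. Of these 44, 12 were higher at an unadjusted p below 0.05 and 10 by at least 1 on the log2 scale. Without Con sample 1, which had the highest tenocyte marker sum, 34 of all 47 members were higher, the median was 0.39 and 10 had an unadjusted p below 0.05. Without Con sample 3 these were 33, 0.40 and 9, and without NC sample 1 there were 9 such members. Without Dis sample 2, which enters only the shared estimate of spread, there were 24.

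Con samples did not behave alike. Con samples 1 and 3 exceeded every NC sample at 37 and 38 of the 47 members, where 26.8% and 34.7% of all genes did so. Con sample 2 exceeded them at 20 members (27.2% of all genes) and lay below them at 16 (31.4% of all genes). The summed level of the 48 genes was 1215, 735.3 and 1150 TPM in Con samples 1 to 3 and 742, 805.8 and 780.2 TPM in NC. The sum in Con sample 2 thus lay below all NC samples, although its Postn and Tnc levels did not. Fibroblast markers outside the members summed to 512.6, 284.4 and 441.9 TPM in Con and to 467.1 to 605.8 TPM in NC. The 10 macrophage markers summed to 87.4 to 144.8 TPM in Con and 59.98 to 72.86 TPM in NC, and 6 of the 9 tested did not overlap. The part of these markers in the lean of the members was not tested.

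**Figure D2:**
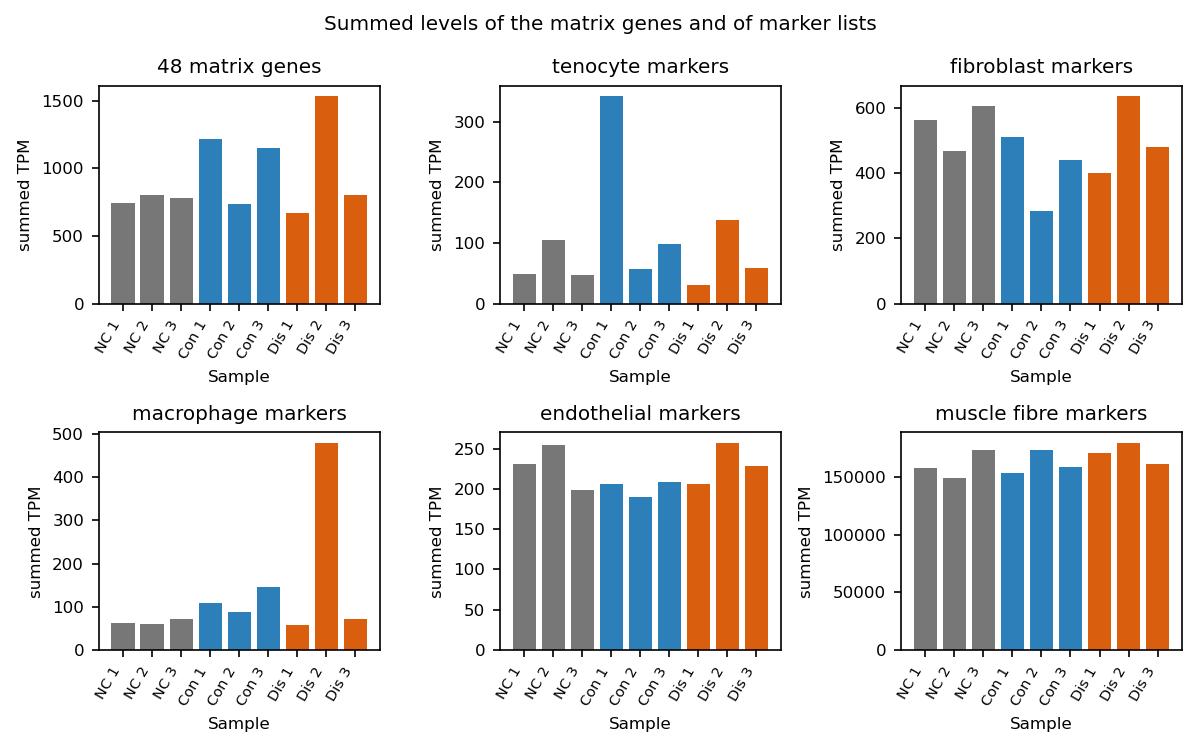
Summed TPM per sample of the 48 matrix genes and of marker lists for tenocytes, fibroblasts (without members of the 48), macrophages, endothelial cells and skeletal muscle fibres, 1 bar per sample. The matrix sum is highest in Dis sample 2 (1532 TPM), where macrophage markers sum to 479 TPM, and tenocyte markers are highest in Con sample 1 (341.6 TPM).

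Among the adhesive and matricellular glycoproteins, periostin and tenascin-C separated Con from both other groups. Periostin, encoded by Postn, is a secreted protein of tendon, fascia and healing tissue that binds integrins and promotes collagen crosslinking. Postn stood at 34.8, 28.8 and 88.7 TPM in Con samples 1 to 3, at 2.57, 10.7 and 5.498 TPM in Dis and at 4.43, 8.15 and 3.77 TPM in NC. Every Con sample exceeded every other sample, and Dis overlapped NC. Its log2 fold change was 2.995 (SE 0.526) for Con with NC, with an adjusted p of 0.214, and it fell by 2.93 (SE 0.53) for Dis with Con, with an adjusted p of 0.00961. For Dis with NC it was 0.06 (SE 0.53). Postn made up 4.91% of the summed level of the 48 genes in Con, 0.626% in Dis and 0.702% in NC.

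Tenascin-C is an anti-adhesive glycoprotein best known from tendon junctions and regenerating muscle. Tnc stood at 5.76, 3.90 and 5.68 TPM in Con, at 0.257, 1.21 and 0.984 TPM in Dis and at 0.360, 0.937 and 0.317 TPM in NC. As for Postn, the Con samples lay above all others and Dis overlapped NC. The log2 fold change was 2.47 (SE 0.34) for Con with NC, and its adjusted p of 0.141 was the lowest among the members in that comparison. Tnc reached an adjusted p of 0.0415 without Dis sample 2 and of 0.0345 in a fit to Con and NC alone. For Dis with Con, Tnc fell by 2.16 on the log2 scale (SE 0.34, adjusted p 0.00618), and for Dis with NC the difference was 0.31 (SE 0.34). The Dis with Con calls of Postn and Tnc held with each of the 9 samples left out in turn.

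Cthrc1 encodes a secreted protein of activated fibroblasts in injured vessels and scars. It was measured at 1.46, 1.57 and 6.07 TPM in Con, was listed at 0 in Dis sample 1 with 1.37 and 0.221 TPM in Dis samples 2 and 3, and stood at 0.134 and 0.0767 TPM in NC samples 1 and 2 and was listed at 0 in NC sample 3. All Con samples again exceeded all others. The log2 fold change of log2(TPM + 0.5), which understates changes at such low levels, was 2.40 (SE 0.55, adjusted p 0.394) for Con with NC and -1.77 (SE 0.55, adjusted p 0.0533) for Dis with Con. Without Dis sample 2 the latter was -2.32 with an adjusted p of 0.0161.

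Fibronectin and thrombospondin-1 followed less evenly. Fn1, the main cell-binding protein of provisional matrix, stood at 37.9, 17.9 and 48.5 TPM in Con, 7.27, 26.7 and 9.22 TPM in Dis and 16.2, 15.8 and 11.2 TPM in NC. The Con samples lay above NC, whereas Dis sample 2 lay within the Con range. The log2 fold change for Dis with Con was -1.36 (SE 0.48, adjusted p 0.0780), and -1.91 with an adjusted p of 0.0124 without Dis sample 2. Thbs1, which activates latent TGF-beta and binds CD36 and CD47, stood at 7.10, 3.16 and 5.89 TPM in Con, 1.81, 7.41 and 2.999 TPM in Dis and 1.36, 2.68 and 1.18 TPM in NC. All Con samples and Dis samples 2 and 3 exceeded the NC samples, and its log2 fold change for Con with NC was 1.39 (SE 0.45, adjusted p 0.590).

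Sparc, a collagen-binding glycoprotein needed for fibril assembly, was the most abundant member of this role. It stood at 326.3, 144.6 and 214.9 TPM in Con, 111.5, 277.2 and 144.7 TPM in Dis and 114.4, 174.6 and 131.4 TPM in NC, so that all groups overlapped. The log2 fold change was 0.65 (SE 0.36) for Con with NC and -0.39 (SE 0.36) for Dis with Con. Of the 14 genes in this role 2 fell in Dis relative to Con (3.08% of all genes fell) and 12 did not pass. The median log2 fold change of the 14 was -0.38, against 0.20 over all genes. The members not given by sample (Tnxb, Thbs2, Tgfbi, Spp1, Smoc2, Matn2, Dpt and Ecm1) overlapped between groups in all 3 comparisons.

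**Figure D3:**
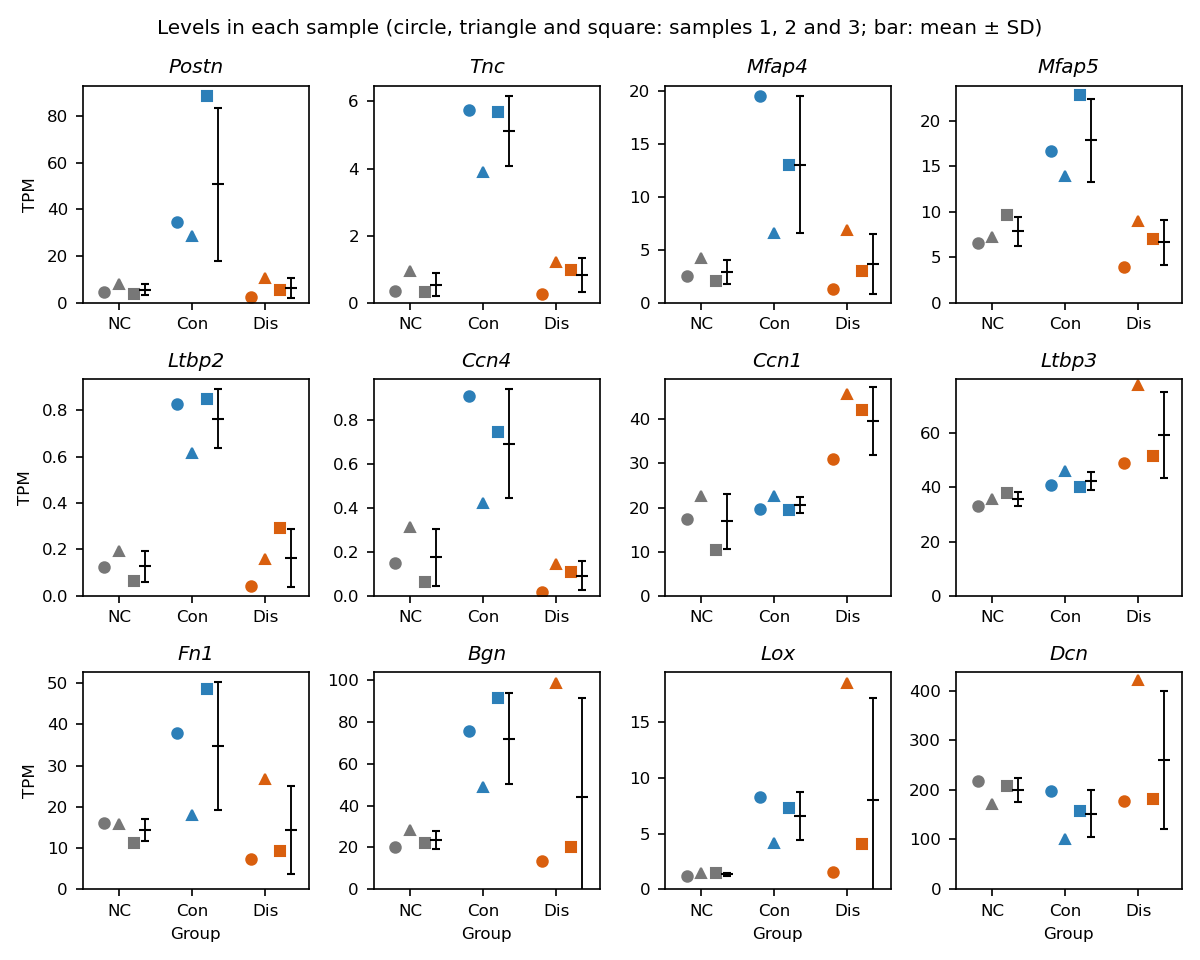
TPM of 12 matrix genes in each sample, with circles, triangles and squares for samples 1, 2 and 3 of NC (grey), Con (blue) and Dis (orange), and the mean with its SD over 3 samples beside them, where error bars that would pass below 0 are drawn to 0. Postn, Tnc, Mfap5, Ltbp2 and Ccn4 are high in all Con samples, Ccn1 in all Dis samples, and Bgn, Lox and Dcn are highest in Dis sample 2.

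The CCN genes went different ways, with Ccn1 higher and Ccn4 lower in Dis than in Con. CCN proteins are modular secreted adaptors that bind integrins and heparan sulphate, and Ccn1 and Ccn2 are textbook targets of YAP. Ccn1 stood at 31.0, 45.7 and 42.2 TPM in Dis, at 19.7, 22.6 and 19.5 TPM in Con and at 17.4, 22.7 and 10.4 TPM in NC. All Dis samples lay above all other samples. The rise was 0.91 on the log2 scale (SE 0.25, adjusted p 0.0372) relative to Con and 1.26 (SE 0.25, adjusted p 0.0125) relative to NC. The first call was lost under median-ratio scaling (0.69, adjusted p 0.115), which removes the upward shift of 0.20 in the median of all genes, and without any 1 of Con samples 1, 2 and 3, Dis samples 2 and 3 or NC sample 1 (adjusted p 0.109, 0.0754, 0.0979, 0.0776, 0.0850 and 0.0591). The second was kept under median-ratio scaling and with each sample left out in turn.

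Ccn4, also known as WISP1 and a target of Wnt signalling, was scarce. It stood at 0.906, 0.419 and 0.744 TPM in Con, 0.0177, 0.146 and 0.108 TPM in Dis and 0.149, 0.314 and 0.0615 TPM in NC, and the Con samples exceeded all others. In Dis relative to Con it fell by 1.00 on the log2 scale of TPM + 0.5 (SE 0.22, adjusted p 0.0189), where the ratio of the group means was 0.131. Ccn4 entered the test through its Con samples, since outside Con only NC sample 2 reached 0.3 TPM. The call was lost without Con sample 1 (adjusted p 0.0771) and without Con sample 3 (0.0606).

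Ccn2, the connective tissue growth factor, stood at 48.2, 22.5 and 37.4 TPM in Con, 7.58, 30.4 and 26.6 TPM in Dis and 11.1, 17.8 and 12.9 TPM in NC. Con lay above NC, and Dis spanned both ranges. Its log2 fold change was 1.30 (SE 0.48, adjusted p 0.670) for Con with NC and -0.88 (SE 0.48, adjusted p 0.224) for Dis with Con. Ccn5 stood at 1.26, 10.3 and 1.34 TPM in Dis, 1.33, 0.735 and 1.22 TPM in Con and 0.995, 0.392 and 0.742 TPM in NC, so that its mean in Dis came mostly from sample 2. Its log2 fold change for Dis with Con was 1.05 (SE 0.60, adjusted p 0.251), and 0.19 without Dis sample 2.

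Among the small leucine-rich proteoglycans, biglycan and decorin differed in their pattern. Both bind collagen fibrils and TGF-beta. Bgn stood at 75.9, 48.7 and 91.7 TPM in Con, 13.4, 98.8 and 20.4 TPM in Dis and 20.2, 28.4 and 22.0 TPM in NC. The Con samples lay above NC, and Dis sample 2 lay above all Con samples. The log2 fold change was 1.56 (SE 0.60, adjusted p 0.723) for Con with NC and -1.20 (SE 0.60, adjusted p 0.196) for Dis with Con. Without Dis sample 2 the latter was -2.04 with an adjusted p of 0.00496.

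Dcn, the most abundant proteoglycan transcript, stood at 196.9, 101.9 and 156.6 TPM in Con, 178.5, 420.9 and 182.0 TPM in Dis and 217.9, 172.5 and 208.8 TPM in NC. Its mean was thus lowest in Con, with a log2 fold change of -0.44 (SE 0.34, adjusted p 0.928) relative to NC, the most negative of the members. Dcn made up 14.7% of the summed level of the 48 genes in Con, 26.0% in Dis and 25.7% in NC, where Sparc made up 22.1%, 17.8% and 18.1%. Of Lum, Ogn, Aspn and Prelp, only Aspn did not overlap between Con and NC, and its log2 fold change was 0.56 (SE 0.25, adjusted p 0.796).

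The large proteoglycans and basement membrane linkers gave no call in any comparison. Perlecan, the heparan sulphate proteoglycan of basement membranes encoded by Hspg2, stood at 40.1, 32.3 and 36.2 TPM in Con, 28.3, 41.2 and 37.7 TPM in Dis and 29.3, 36.4 and 28.2 TPM in NC. The groups overlapped, and the log2 fold changes were 0.21 (SE 0.16) for Con with NC and -0.03 (SE 0.16) for Dis with Con. Versican, the hyaluronan-binding proteoglycan of provisional matrix, was the only gene of the role with separate Con and NC samples, at a log2 fold change of 1.08 (SE 0.46, adjusted p 0.780). The nidogens, which bridge laminin and collagen IV, differed by at most 0.46 in either direction between groups, and exons of Nid2 share 437 bases with Rtraf on the other strand.

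In the elastic fibre genes the differences lay in the microfibril-associated proteins. Mfap5, which binds fibrillin microfibrils, stood at 16.7, 14.0 and 22.9 TPM in Con, 3.95, 8.93 and 6.98 TPM in Dis and 6.59, 7.25 and 9.63 TPM in NC. The Con samples lay above all others. It was 1.13 higher (SE 0.28, adjusted p 0.419) in Con than in NC on the log2 scale and fell by 1.40 (SE 0.28, adjusted p 0.0134) in Dis relative to Con, a call lost without Con sample 1 (adjusted p 0.0502). Mfap4, a fibrinogen-domain protein of microfibrils, stood at 19.5, 6.58 and 13.0 TPM in Con, 1.28, 6.82 and 2.97 TPM in Dis and 2.53, 4.19 and 2.01 TPM in NC. Dis sample 2 exceeded the lowest Con sample, and 89 bases of Mfap4 exons overlap Mapk7, which reached 5.277 TPM. Mfap4 fell by 1.80 (SE 0.52, adjusted p 0.0433) in Dis relative to Con, and this call was kept only when Con sample 2 or Dis sample 2 was the one left out, with adjusted p of 0.0568 to 0.143 without any other 1.

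Fibrillin-1, the backbone of microfibrils, was measured at 10.1, 5.47 and 12.5 TPM in Con, 1.78, 9.78 and 3.72 TPM in Dis and 4.66, 5.65 and 5.33 TPM in NC. The groups overlapped in all comparisons, and the log2 fold change of Fbn1 for Dis with Con was -1.02 (SE 0.48, adjusted p 0.168), or -1.59 with an adjusted p of 0.0180 without Dis sample 2. Fbln2, which encodes fibulin-2 and was the most abundant of the role, stood at 24.3, 19.4 and 28.5 TPM in Con, 18.4, 38.3 and 24.6 TPM in Dis and 25.2, 24.0 and 22.5 TPM in NC, with log2 fold changes of -0.01 (SE 0.24) for Con with NC and 0.12 (SE 0.24) for Dis with Con. Elastin itself was higher in all Con samples than in NC, with a log2 fold change of 0.71 (SE 0.30, adjusted p 0.775), as were Emilin1, Mfap2 and Efemp2. Fbln1, Fbln5 and Efemp1, the remaining fibulins, overlapped between groups in all 3 comparisons. Of the 11 tested genes of this role 2 fell in Dis relative to Con (3.08% of all genes fell) and 9 did not pass.

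Of the latent TGF-beta binding proteins, Ltbp2 fell in Dis relative to Con and Ltbp3 rose in Dis relative to NC. Ltbp2, which binds microfibrils and, unlike the others, does not bind latent TGF-beta, stood at 0.828, 0.617 and 0.847 TPM in Con, 0.0408, 0.160 and 0.291 TPM in Dis and 0.126, 0.192 and 0.0625 TPM in NC. The Con samples lay well above the rest. The ratio of the Con mean to the NC mean was 6.03, and the log2 fold change of TPM + 0.5 was 1.01 (SE 0.19, adjusted p 0.311). In Dis relative to Con it fell by 0.94 (SE 0.19, adjusted p 0.0149), and the call was lost without Con sample 1 (adjusted p 0.0603) or Con sample 3 (0.0520). Ltbp2 entered the test through Con alone, since no Dis or NC sample reached 0.3 TPM.

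Ltbp3, which helps fold and secrete latent TGF-beta1, was the highest member of this role. It stood at 48.8, 77.5 and 51.3 TPM in Dis, 40.7, 46.0 and 40.0 TPM in Con and 32.9, 35.8 and 37.9 TPM in NC, with no overlap between any of the groups. It rose by 0.70 on the log2 scale (SE 0.16, adjusted p 0.0210) in Dis relative to NC and was 0.45 higher (SE 0.16, adjusted p 0.0834) relative to Con. The call against NC was lost under median-ratio scaling (0.46, adjusted p 0.0608) and without NC sample 1, 2 or 3 (adjusted p 0.0826, 0.0610 and 0.0545). Whether strand was used in counting is not given in the sources used here. Ltbp1 and Ltbp4 overlapped between groups in all 3 comparisons.

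The lysyl oxidases were all higher on average in Con than in NC, and none passed the threshold in any comparison. Lox, the main crosslinking enzyme of collagen and elastin, stood at 8.25, 4.16 and 7.30 TPM in Con, 1.57, 18.5 and 4.03 TPM in Dis and 1.15, 1.43 and 1.41 TPM in NC. Both legs of the immobilized mice thus lay above all NC samples, although Dis sample 1 did so narrowly. The log2 fold changes of Lox were 1.90 (SE 0.65, adjusted p 0.616) for Con with NC and 1.62 (SE 0.65, adjusted p 0.112) for Dis with NC. Without Dis sample 2 the latter was 0.745 (adjusted p 0.182), and without Dis sample 1 it was 2.34 (adjusted p 0.0216). Loxl1, an elastin crosslinker and the most abundant of the role, stood at 10.25, 10.33 and 15.03 TPM in Con, 5.51, 20.4 and 5.91 TPM in Dis and 6.12, 7.37 and 8.33 TPM in NC. Con did not overlap NC, and its log2 fold change was 0.66 (SE 0.42, adjusted p 0.898). Loxl2 and Loxl3 overlapped between groups in all comparisons.

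**Figure D4:**
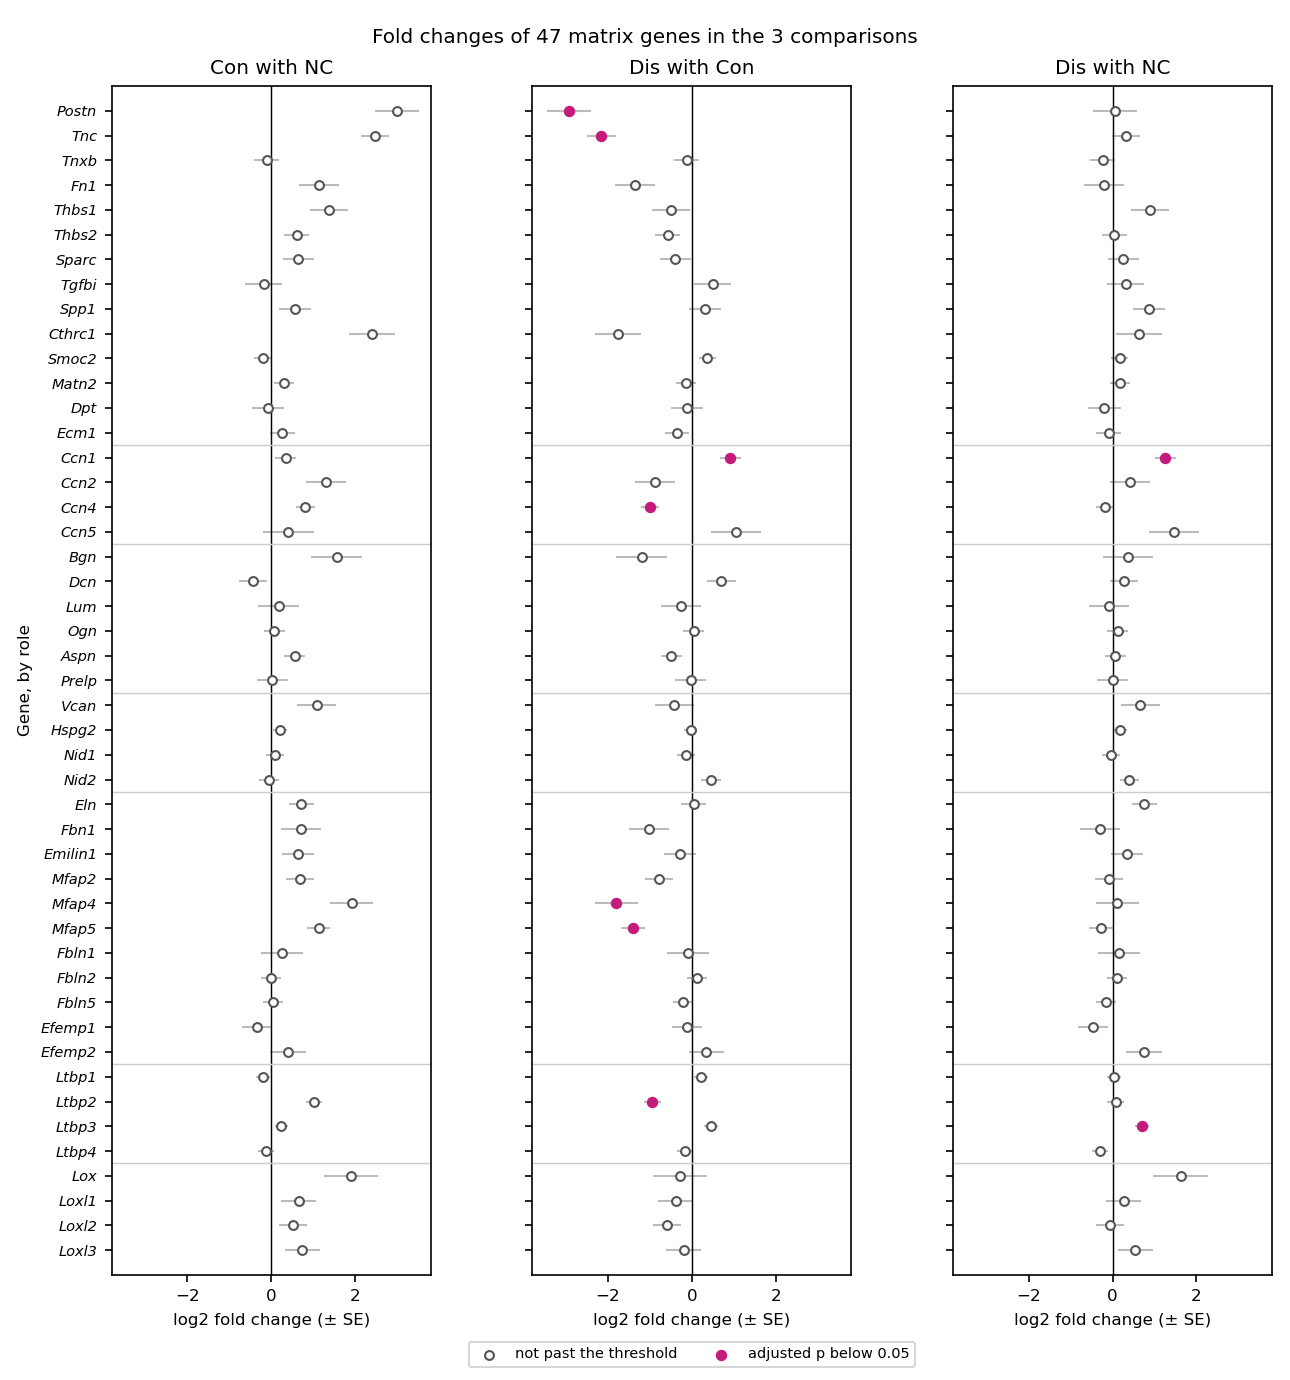
Log2 fold change with its SE from limma for the 47 tested matrix genes, by role, in Con with NC, Dis with Con and Dis with NC, with filled points for an adjusted p below 0.05. Con with NC has no filled point, Dis with Con has 6 to the left and 1 to the right, and Dis with NC has 2 to the right.

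For the immobilized leg against the free leg, then, 6 members fell (Postn, Tnc, Ccn4, Ltbp2, Mfap4 and Mfap5) and 1 rose (Ccn1), while 40 did not pass. Over all tested genes 3.08% fell and 14.1% rose. Ccn4 and Ltbp2 passed the filter only through Con, the group where they were high, and 4 of the 44 members that did not depend on Con for it fell. In 6 members all Dis samples lay below all Con samples (6.43% of all genes) and in 2 above them (30.2%), and 34 of 47 had a lower mean log2 level in Dis (26.8% of all genes) and 13 a higher one (73.2%). At an unadjusted p below 0.05, 9 members were lower (5.92% of all genes) and 2 higher (27.7%). A difference of at least 1 on the log2 scale was found downward in 8 members (1.16% of all genes) and upward in 1 (1.59%). These counts include Cthrc1, Ccn4 and Ltbp2, which all passed the filter only through Con. Among the other 44 members, 3 lay below Con without overlap and 31 were lower by sign. Of these 44, 6 were lower at an unadjusted p below 0.05 and 7 by at least 1 on the log2 scale. The members' median log2 fold change was -0.21, where that of all genes was 0.20. Under median-ratio scaling these were -0.41 and 0.01, with 6 members called lower and 0 higher (4.665% and 2.67% of all genes).

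The count depended on single samples. Without Dis sample 2, 16 members fell and 0 rose (3.56% and 11.8% of all genes), and the median was -0.68. The 10 additional genes were Fn1, Cthrc1, Dpt, Bgn, Lum, Fbn1, Emilin1, Mfap2, Loxl1 and Loxl2. Cthrc1, Ccn4 and Ltbp2 are among the 16 and passed the filter only through Con, the group where they were high. No count without them was made for this fit. Without Con sample 1 only Postn and Tnc fell, and without Con sample 3 only Postn, Tnc and Mfap5, while the share of all genes that fell was 1.16% and 1.57%. Without Dis sample 1, which held the lowest level of 24 members, 5 fell and Ccn1, Nid2 and Ltbp3 rose (2.86% and 15.1% of all genes), with a median of 0.03. Ccn4 and Ltbp2 were among these 5.

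**Figure D5:**
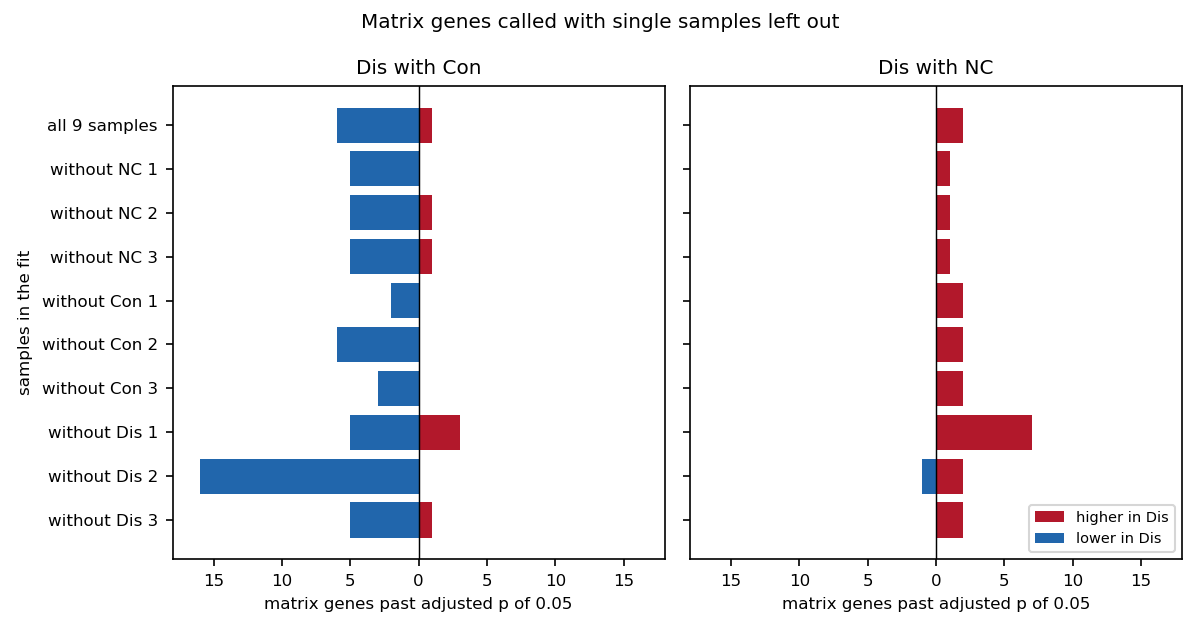
Number of the tested matrix genes past an adjusted p of 0.05 in limma with all 9 samples and with each sample left out, counted to the right where higher and to the left where lower in Dis. For Dis with Con the lower count runs from 2 without Con sample 1 to 16 without Dis sample 2.

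Against the untouched mice, 2 members passed in the immobilized leg. Ltbp3 and Ccn1 rose (13.6% of all tested genes rose) and 0 members fell (2.99% of all genes), with 0 lower (6% of all genes) and 6 higher (28.1%) at an unadjusted p below 0.05. Differences of at least 1 on the log2 scale were upward in 3 members (2.29% of all genes) and downward in 0 (0.96%). All Dis samples lay above all NC samples in Ccn1, Ccn5, Ltbp3 and Lox, and in 0 members below them, against 31.3% and 6.71% of all genes. The median log2 fold change was 0.16, against 0.21 over all genes, and 33 of 47 members were higher by sign (73.7% of all genes) but 21 under median-ratio scaling. The median was -0.17 without Dis sample 2 and 0.36 without Dis sample 1 (0.15 and 0.26 over all genes). With all 9 samples it was -0.061 under median-ratio factors and -0.054 under quantile normalization. Its sign thus rested on Dis sample 2 and on the scaling. Without Dis sample 1, 7 members rose (Ccn2, Nid2, Lox, Ltbp3, Ccn1, Spp1 and Eln), a share near the 16.2% of all genes that rose in that fit. Without Dis sample 2 Ltbp3 and Ccn1 rose and Dpt, a small collagen-binding protein, fell by 0.73 (adjusted p 0.0332).

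Ordering the group means of TPM gave Con above Dis above NC for 20 of the 47 members (42.6%), an order held by 7.76% of all tested genes. By mean log2 level it was also 20 (7.97% of all genes), and without Dis sample 2 it was 13 on either scale (27.7%, against 9.94% of all genes by TPM). The 20 include Cthrc1 and Ltbp2 on both scales, and Ccn4 held Con above NC above Dis. These 3 genes passed the filter only through Con, so the place of Con at the top was partly set by the filter. Orders were not counted without them. With all samples, Con above NC above Dis held for 6 members by TPM (12.8%, against 8.75% of all genes). By log2 level it held for 10 (21.3%, against 9.01%). Without Dis sample 2 this was the most frequent order of the members. It then held for 21 by TPM (44.7%, against 13.4% of all genes) and 20 by log2 level (42.6%, against 13.2%). Dis above Con above NC was the most frequent order over all genes with all samples. It held for 12 members by TPM (25.5%, against 35.3% of all genes) and 7 by log2 level (14.9%, against 34.5%). Without Dis sample 2 it held for 4 on either scale (8.51%, against 28.5% of all genes by TPM). The 12 members that were at least 1 higher on the log2 scale in Con than in NC include Cthrc1 and Ltbp2. These 12 had log2 fold changes of -0.28 to 1.62 for Dis with NC, with a median of 0.34, and of -2.93 to -0.28 for Dis with Con. These comparisons share their Con, Dis and NC samples, so the values are set side by side and not counted as separate evidence.

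Other genes of the same protein families followed in part. Of 32 listed, 25 were tested, and 0 passed for Con with NC (0% of all genes rose and 0.0062% fell). For Dis with Con 1 rose (Vwa1, against 14.1% of all genes). For Dis with NC 1 rose (Cilp, against 13.6% of all genes) and 1 fell (Hmcn1, against 2.99%). Cilp, a cartilage and fibroblast glycoprotein that binds TGF-beta1, stood at 24.2, 20.6 and 53.1 TPM in Con, 17.2, 13.0 and 12.1 TPM in Dis and 4.201, 7.432 and 4.289 TPM in NC. Both legs of the immobilized mice lay above NC, with log2 fold changes of 2.43 (SE 0.34, adjusted p 0.141) in Con and 1.36 (SE 0.34, adjusted p 0.0273) in Dis. Without Dis sample 1 the latter was 1.21 and did not pass (adjusted p 0.0609). Thbs4, a thrombospondin of tendon, had log2 fold changes of 1.60 (SE 0.55, adjusted p 0.622) for Con with NC and -1.46 (SE 0.55, adjusted p 0.0936) for Dis with Con, and reached 102.7 TPM in Con sample 1. Without that sample these were 1.18 and -1.05, and without Dis sample 2 the latter was -1.92 with an adjusted p of 0.0407. Vwa1, a basement membrane protein, rose by 0.66 (SE 0.17, adjusted p 0.0287) in Dis relative to Con, which was lost without Con sample 1 (adjusted p 0.102). Hmcn1, a large fibulin-like protein, fell by 1.12 (SE 0.31, adjusted p 0.0369) in Dis relative to NC, which was lost without Dis sample 2 (adjusted p 0.0814).

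Collagen processing enzymes gave few calls. Of 18 tested, 1 rose and 1 fell for Dis with Con (14.1% and 3.08% of all genes). For Dis with NC 2 rose (13.6% of all genes), and 0 passed for Con with NC (0% of all genes rose and 0.0062% fell). P3h2, a collagen prolyl 3-hydroxylase, stood at 5.78, 8.31 and 6.09 TPM in Con, 1.04, 2.35 and 1.17 TPM in Dis and 2.059, 3.799 and 2.014 TPM in NC. It had the highest levels in Con, as Postn and Tnc did, and fell by 1.88 (SE 0.29, adjusted p 0.00607) in Dis relative to Con. P4hb, the protein disulphide isomerase that is also a subunit of prolyl 4-hydroxylase, rose by 0.70 (SE 0.20, adjusted p 0.0400) relative to Con and 0.90 (SE 0.20, adjusted p 0.0177) relative to NC. P3h1 rose by 0.53 (SE 0.15, adjusted p 0.0433) relative to NC. Without Con sample 1 and without Dis sample 2, P4hb relative to Con (adjusted p 0.122 and 0.0544) and P3h1 relative to NC (0.0627 and 0.0684) did not pass.

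In the TGF-beta pathway the receptors were higher in Dis. Of 16 genes tested, 3 rose for Dis with Con (14.1% of all genes) and 5 rose for Dis with NC (13.6%). For Con with NC 0 passed (0% of all genes rose and 0.0062% fell). Tgfbr1, the type I receptor, stood at 13.4, 18.4 and 12.6 TPM in Dis, 6.43, 7.86 and 7.86 TPM in Con and 6.92, 6.91 and 6.94 TPM in NC. Dis did not overlap the other groups, and Tgfbr1 rose by 0.94 (SE 0.15, adjusted p 0.00661) relative to Con. Tgfbr3, the co-receptor betaglycan, rose by 1.02 (SE 0.18, adjusted p 0.00859) and the ligand Tgfb2 by 0.55 (SE 0.16, adjusted p 0.0396), the latter with an adjusted p of 0.109 without Con sample 1. Relative to NC, Tgfbr2 and the signal transducer Smad3 rose as well, by 0.71 and 0.81 (SE 0.18 and 0.23, adjusted p 0.0275 and 0.0392).

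Mechanosensitive targets of YAP/TEAD and SRF were the last list. Of 16 tested, 1 rose and 1 fell for Dis with Con (14.1% and 3.08% of all genes). For Dis with NC 2 rose and 1 fell (13.6% and 2.99%), and 0 passed for Con with NC (0% and 0.0062%). Ankrd1, a stress-responsive protein of muscle and a YAP target, stood at 26.5, 33.2 and 33.0 TPM in Con, 16.1, 92.9 and 24.2 TPM in Dis and 4.99, 6.36 and 2.91 TPM in NC. Both legs of the immobilized mice lay above NC, with log2 fold changes of 2.63 (SE 0.54, adjusted p 0.394) in Con and 2.74 (SE 0.54, adjusted p 0.0121) in Dis. With Dis sample 2 left out these were 2.63 (adjusted p 0.0116) and 2.002 (adjusted p 0.00547). Amotl2, another YAP target, rose by 0.54 (SE 0.14, adjusted p 0.0317) relative to Con, and Srf itself fell by 0.31 (SE 0.08, adjusted p 0.0290). Without Con sample 1 neither passed (adjusted p 0.0874 and 0.0823). Amotl2 also did not pass without Dis sample 1 (adjusted p 0.0641).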

How the data were processed

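RNA of 9 gastrocnemius samples was sequenced. Per the labels and methods, the authors demultiplexed reads with bcl2fastq 2.20, trimmed them (Trimmomatic), aligned them (HISAT2) and quantified genes (StringTie). The deposited values are TPM per gene, scaled by the authors to the same total in each sample, with 1e-04 as the lowest value, read here as 0. TPM holds no read totals, so depth is unknown and neither counting errors nor detection limits can be given. The genome build is not given in the sources used here. Of 55487 gene identifiers, 55141 are in GENCODE release M21 (GRCm38), 54778 of them at the same coordinates.

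Groups follow the treatment in the labels. The 16140 genes reaching 0.3 TPM in 3 or more samples were fitted as log2(TPM + 0.5) by limma 3.58.1 (R 4.3.3) over all groups, using a mean trend and Benjamini-Hochberg adjustment over every tested gene, with a threshold of 0.05. A fold change is the difference between mean log2 values and understates changes of low genes. "Called", "rose" and "fell" refer to this threshold. The members and gene lists were chosen with earlier results of these data known, so their counts are descriptions. Values in every sample are given for members called in any comparison, for the 10 with the largest absolute log2 fold change in Con with NC and in Dis with Con, and for the member of each role with the highest mean TPM. Of the other lists, called genes and at most 3 with the largest absolute log2 fold change are named. Some results on the other lists and on overlapping genes are not reported here. Alternatives were pseudocounts of 0.1 and 1, no filter, a filter of 1 TPM, median-ratio factors, quantile normalization, no mean trend, rescaling after removal of mitochondrially encoded genes, a term for the sample number, fits to the 2 groups compared, and omission of single samples. The order of group means by log2 level or without single samples, and the counts without members that passed the filter only through Con, were added after seeing the data. Python 3.11.15, pandas 2.3.3, numpy 2.4.6 and matplotlib 3.10.9 served for tables and figures.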

Additional observations from a re-analysis of the deposited data

How the results depend on the processing

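With each sample left out in turn, the members called ran from 0 to 1 higher for Con with NC, from 0 to 3 higher and 2 to 16 lower for Dis with Con, and from 1 to 7 higher and 0 to 1 lower for Dis with NC, while all tested genes ran from 0 to 6 higher and 1 to 2 lower, from 513 to 2435 higher and 187 to 574 lower, and from 652 to 2607 higher and 184 to 547 lower. For Con with NC, a fit to these 2 groups called 1 member higher (Tnc) and 5 genes higher and 2 lower in all, and no filter called 1 gene higher. For Dis with Con, the higher count of members was 0 with no filter, without the mean trend, under median-ratio factors (431 genes higher and 753 lower in all), quantile normalization (549 higher) and rescaling without mitochondrially encoded genes (1379 higher), and a fit to 2 groups called 3 members lower (639 genes higher and 209 lower). For Dis with NC, 1 member was higher with no filter, under median-ratio factors (566 genes higher and 891 lower), quantile normalization (630 and 777) and a fit to 2 groups (987 and 243), and 1399 genes were higher after rescaling without mitochondrially encoded genes. The cause of these shifts was not tested. Calls of members in the remaining alternatives stayed within 1.5 times the counts reported, and no call of a member changed sign in its own comparison under any alternative.

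Whether the sample numbers pair the 2 legs of a mouse could not be settled. Deviations from the group means of same-numbered Dis and Con samples correlated at -0.011, -0.019 and 0.022. Those of differently numbered Dis and Con samples correlated at -0.086 to 0.089. Deviations from means of 3 samples cannot exclude a pairing. With the replicate block in the fit to all 9 samples the members called were 0 for Con with NC (1 gene higher in all), 1 higher and 5 lower for Dis with Con and 2 higher for Dis with NC. With the block in fits to 2 groups, 0 members were called in each comparison, with 0 genes lower for Con with NC, 84 higher and 80 lower for Dis with Con, and 0 higher and 0 lower for Dis with NC in all.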

Other observations

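Dis sample 2 held the highest level of 27 of the 47 tested members and Dis sample 1 the lowest of 24. Dis sample 2 exceeded every NC sample at 40 members, where 63.0% of all genes did so, and Dis sample 1 lay below every NC sample at 31 (22.8% of all genes), so the members' levels in the 3 immobilized legs spanned a wider range than in NC. The sums over the 48 genes were 668.6, 1532 and 800.5 TPM in Dis. Myelin and Schwann cell markers, which mark intramuscular nerve, were also uneven: 3 of 8 rose in Dis relative to Con (14.1% of all tested genes did), and their sums were 207.1, 162.2 and 396.6 TPM in Dis and 165, 68.7 and 87.3 TPM in Con. The 6 adipocyte markers summed to 369.7 TPM in Con sample 1 and to 36.1 to 125.9 TPM in the other samples.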
